A study of Mus musculus with 14 samples.

Results

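The hepatic acute phase response and the interleukin-6 to Stat3 pathway that drives it were followed through 36 genes in mouse liver tumors with and without delivered Aoah, which encodes acyloxyacyl hydrolase, an enzyme known for removing acyl chains from bacterial lipopolysaccharide. The genes were a list of named symbols: secreted acute phase proteins, the interleukin-1 receptor and its antagonist, interleukin-6 family receptors, and Stat3 with its partner and feedback genes. This list, and the pathway and marker lists used below, were chosen with earlier results of these data known. Their counts beside the share of all genes are therefore descriptive. All 36 were found among the 29923 gene symbols measured, and all 36 were among the 13466 kept for testing, that is, at 1 TPM (transcripts normalised for gene length and library total) or more in at least 3 tumors.

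Interleukin-6 binds its receptor Il6ra together with the shared signalling chain Il6st (gp130), whose Jak kinases phosphorylate Stat3. In hepatocytes Stat3 works with C/EBP factors, and with NF-kB activated by interleukin-1, to raise transcription of plasma proteins such as serum amyloid A, fibrinogen and alpha-2-macroglobulin, while albumin and transthyretin fall. Stat3 also raises Socs3, which binds gp130 and Jak kinases and shuts the signal down. In the liver this pathway is known for the response to infection and injury, for regeneration and for hepatocellular carcinoma.

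The tumors were hepatocellular carcinomas of C57BL/6 mice, raised by hydrodynamic injection of transposon plasmids with the transposase SB100, so that every group shared delivered MYC and luciferase. Luc tumors carried MYC with luciferase, and LucOS tumors carried the same with the antigens OVA, SIN and SIY. Each model was given an Aoah plasmid or the empty vector, which made 4 Luc Aoah, 4 Luc vector, 3 LucOS Aoah and 3 LucOS vector tumors. A plasmid for truncated beta-catenin is also listed for the series without a statement of which tumors received it, and an anti-PD1 protocol is given without a statement that any of these tumors was treated. Tumors are numbered in the labels with no word on whether each is from its own animal, and p-values therefore measure only the spread between these samples.

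Aoah ranged from 284 to 685 TPM over the Luc Aoah group, from 576 to 931 over the LucOS Aoah group and from 1.28 to 3.43 over the LucOS vector group. Luc vector tumors 2 and 4 held 0.74 and 0.89 TPM of Aoah, but Luc vector tumors 1 and 3 held 18.6 and 54.8 TPM, so counts and named calls of the 36 genes in Luc, and counts for the other gene lists, are also given without those 2. The tumors had 11478 to 12836 genes at 1 TPM or more, and mitochondrial transcripts took 3.41% to 8.45% of TPM except for 16.6% in LucOS Aoah 3. Summed hepatocyte markers, 10 genes including Alb and Apoa1, ranged from 9099.5 to 31488 TPM over the 4 groups, so the labelled liver origin was seen in every group.

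Start-site sequence was taken for 30 of the 36 genes, all but Orm1, Hp, A2m, Serpina3m, Serpina3k and Cebpd, as 300-base windows from 250 bases before to 50 bases after an annotated start site (RefSeq, GRCm38.p6). Genes can have further starts: for Socs3 the start used lies 970 bases and for Saa3 3939 bases inside RefSeq's outermost gene end, and the nearest start of a GENCODE coding transcript is 180 bases downstream of it for Socs3 and 24 bases upstream for Saa3. Distances therefore hold for the start used here. These windows were searched on both strands for the Stat element TTCNNNGAA, the C/EBP element TTGCNNAA and the NF-kB consensus. The 5 windows printed are those of Socs3 and Saa3, the members called in both tumor models, of Itih4, the other member with a Stat element whose level fell, and of Saa1 and Saa2, near-copies that did not pass the test. Each is given 5′ to 3′ on the gene's own strand, with the Stat element in capitals for Socs3 and Itih4 and the C/EBP element in capitals for Saa3, Saa1 and Saa2.
Socs3 start-site window, chr11:117969317-117969616, minus strand: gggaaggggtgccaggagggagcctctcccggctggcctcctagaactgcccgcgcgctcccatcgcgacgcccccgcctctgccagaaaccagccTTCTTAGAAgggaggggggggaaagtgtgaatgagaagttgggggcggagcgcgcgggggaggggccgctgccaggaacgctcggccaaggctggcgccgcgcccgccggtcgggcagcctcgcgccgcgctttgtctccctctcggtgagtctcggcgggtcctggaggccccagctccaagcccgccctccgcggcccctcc
Itih4 start-site window, chr14:30886226-30886525, plus strand: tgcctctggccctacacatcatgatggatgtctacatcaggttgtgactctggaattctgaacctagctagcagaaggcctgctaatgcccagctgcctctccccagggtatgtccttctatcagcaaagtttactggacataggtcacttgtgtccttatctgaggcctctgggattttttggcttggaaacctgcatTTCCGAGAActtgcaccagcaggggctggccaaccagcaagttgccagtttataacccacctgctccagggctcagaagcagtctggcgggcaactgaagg
Saa3 start-site window, chr7:46715627-46715926, minus strand: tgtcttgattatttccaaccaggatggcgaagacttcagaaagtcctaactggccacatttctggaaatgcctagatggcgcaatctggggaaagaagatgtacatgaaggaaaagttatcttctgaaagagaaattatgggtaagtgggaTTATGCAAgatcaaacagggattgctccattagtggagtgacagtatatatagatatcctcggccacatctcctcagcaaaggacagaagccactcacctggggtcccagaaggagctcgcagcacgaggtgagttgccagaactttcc
Saa1 start-site window, chr7:46742931-46743230, minus strand: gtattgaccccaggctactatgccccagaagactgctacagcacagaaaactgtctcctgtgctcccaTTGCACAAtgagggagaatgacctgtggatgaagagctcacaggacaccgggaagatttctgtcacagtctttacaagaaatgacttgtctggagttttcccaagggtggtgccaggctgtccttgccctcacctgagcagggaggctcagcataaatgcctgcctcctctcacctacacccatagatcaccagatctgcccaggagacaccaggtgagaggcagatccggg
Saa2 start-site window, chr7:46751583-46751882, plus strand: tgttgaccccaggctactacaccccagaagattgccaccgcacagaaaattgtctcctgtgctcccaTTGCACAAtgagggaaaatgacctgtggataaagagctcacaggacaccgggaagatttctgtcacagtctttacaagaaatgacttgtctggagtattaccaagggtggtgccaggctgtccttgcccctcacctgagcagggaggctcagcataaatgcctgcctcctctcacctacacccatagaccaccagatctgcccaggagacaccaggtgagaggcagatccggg

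A Stat element was held by 4 of the 30 genes (13.3%), namely Socs3, Itih4, Apcs and Steap4, against 9.6% of the 27025 genes with a window. In Socs3 it began 154 bases and in Itih4 51 bases upstream of the start used. The C/EBP element was held by 11 of the 30 (36.7%), against 12.2% of all genes: all 4 serum amyloid A genes, Orm2, Orm3, Hpx, Cp, Steap4, Mt2 and Il1r1. It began 182 bases upstream of the start in Saa1, 183 in Saa2 and 99 in Saa3. The NF-kB consensus was in 4 of the 30 (13.3%), against 9.6% of all genes: Steap4, Il1r1, Bcl3 and Ier3. These are letter matches in a short window and no measure of binding, and the map of motif matches shows where they lie.

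**Figure D1:**
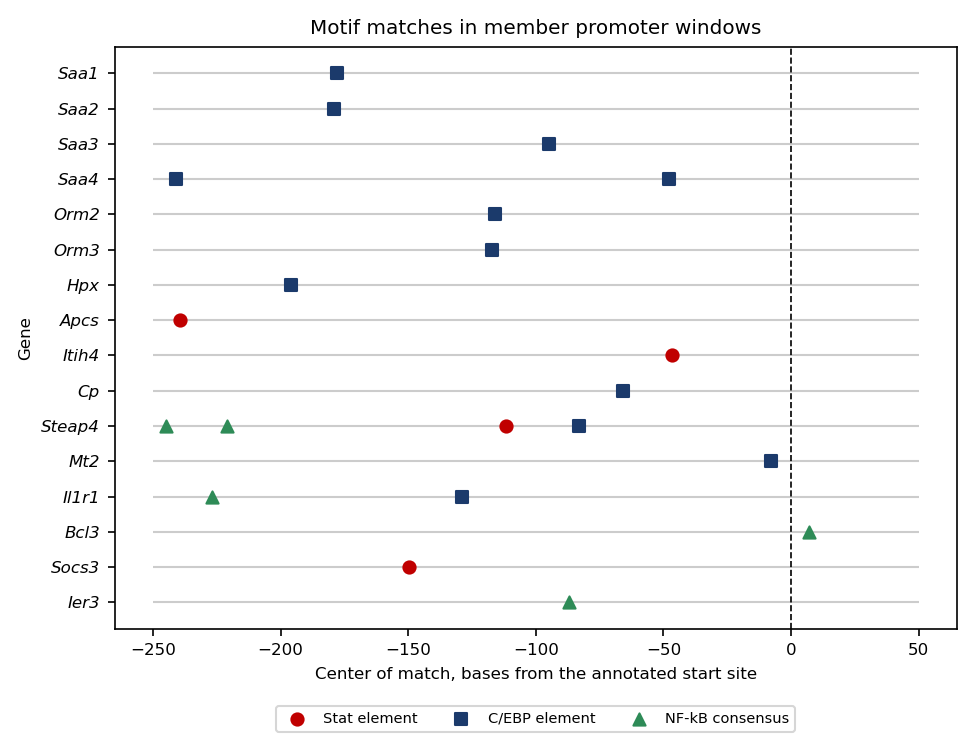
Position of motif matches in promoter windows of the 16 genes that hold at least 1 of the 3 motifs. The horizontal axis is the distance in bases from the annotated start site (dashed line), each gray line is a gene's window, and red circles, blue squares and green triangles mark Stat, C/EBP and NF-kB matches. C/EBP matches lie in 11 genes, all 4 serum amyloid A genes among them, and Stat matches in Socs3, Itih4, Apcs and Steap4.

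In Luc tumors with Aoah, 15 of the 36 genes fell and 2 rose against vector tumors (limma on log2(TPM + 1), Benjamini-Hochberg adjusted p under 0.05). Of all genes tested, 14.3% fell and 7.93% rose. The 15 were Osmr, Stat3, Cebpd, Junb, Bcl3, Socs3, Ier3, Il1rn, Il1r1, A2m, Serpina3n, Itih3, Itih4, Lrg1 and Saa3, and the 2 were Lifr and Serpina3k. All Luc Aoah tumors were below all Luc vector tumors for 15 of the 36 genes, as for 9.1% of all genes tested, and above them for 2 of the 36, beside 11.8% of all genes. The median difference over the 36 genes was -0.86 on the log2 scale, beside -0.24 over all genes tested. In bulk tissue, fewer cells of a type and less RNA per cell cannot be told apart.

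Without Luc vector tumors 1 and 3, 5 of the 17 calls were kept: Socs3, Ier3, Bcl3, Il1r1 and Serpina3n, all lower. Of the 13243 genes tested in that fit 2.68% were called, 265 higher and 90 lower. All 17 differences kept their sign. The same 5 genes were called in each of the 23 alternatives tried. Leaving out Luc Aoah 4 left 10 genes of the list called, and 6.4% of all genes.

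**Figure D2:**
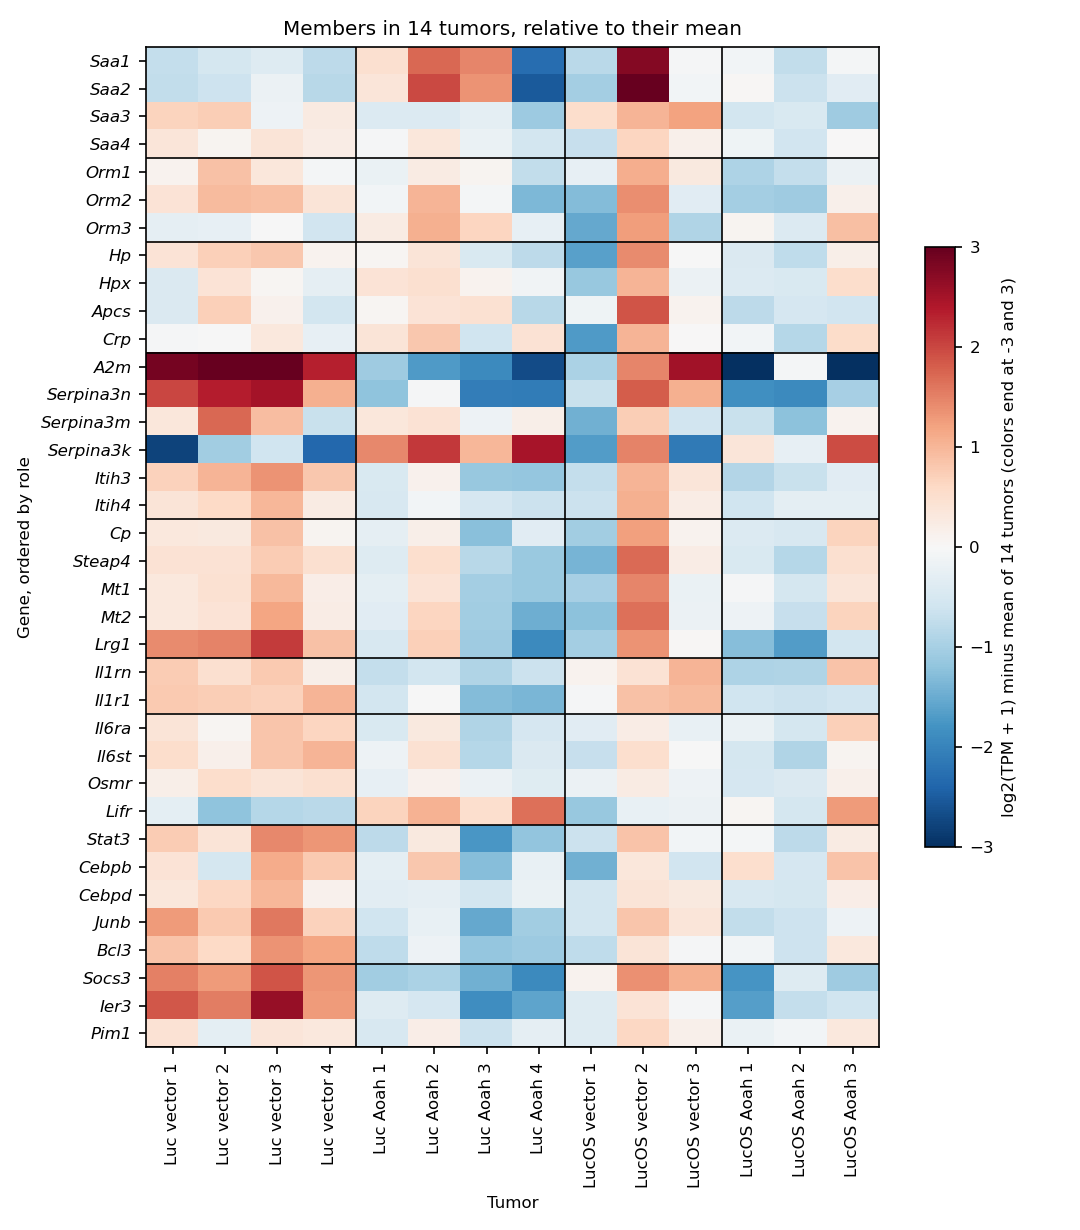
Each gene's log2(TPM + 1) in each tumor minus its mean over the 14 tumors, with genes in rows by role and tumors in columns by group (red above the mean, blue below, colors ending at -3 and 3). A2m, Serpina3n, Lrg1, Socs3 and Ier3 are red in all 4 Luc vector tumors, Serpina3k and Lifr are red in all 4 Luc Aoah tumors, and LucOS vector 2 is red for most genes.

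Among the ligands, Il6 was the one with a wide range. It was at 3.74, 1.5, 2.93 and 0.47 TPM in Luc Aoah tumors 1 to 4 and at 11.7, 37.2, 6.78 and 18 TPM in Luc vector tumors 1 to 4. Every Aoah tumor was below every vector tumor, yet the difference of -2.51 ± 1.05 (log2 scale, SE) did not pass the test (limma adjusted p = 0.0963). In LucOS Aoah tumors Il6 was at 0.09, 14.3 and 0.19 TPM, and in LucOS vector tumors at 3.98, 15.7 and 142 TPM. Those groups overlapped through LucOS Aoah 2, and the difference was -3.07 ± 1.22 (limma adjusted p = 0.32). Of the 14 ligands and inducing cytokines listed, 5 were tested and none passed in either model (limma). At an unadjusted p under 0.05 there were 2 of 5 in Luc, beside 41.8% of all genes tested, and 1 of 5 in LucOS, beside 12.3%. The other ligands that reached 1 TPM in any tumor were Ctf1 (0.52 to 2.05 TPM over all tumors), Cntf (0.21 to 1.76), Clcf1 (0.16 to 1.07), Il1a (0.75 to 3.10), Il1b (0.81 to 2.99) and Tnf (0.00 to 1.55).

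The 4 receptors of the interleukin-6 family went different ways in Luc tumors. Lifr, the chain for leukemia inhibitory factor, was at 12.4, 16.4, 10.9 and 25.6 TPM in Luc Aoah tumors and at 5.89, 2.64, 3.64 and 3.85 TPM in Luc vector tumors. The lowest Aoah tumor was above the highest vector tumor, and Lifr rose by 1.76 ± 0.38 (log2 scale, SE), a 3.38-fold difference (limma adjusted p = 0.00781). With Luc vector tumors 1 and 3 left out, it was 1.97 with an adjusted p of 0.0502 by limma.

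Osmr, the oncostatin M chain, was low throughout. Its levels were 0.46, 0.92, 0.53 and 0.36 TPM in Luc Aoah and 0.97, 1.52, 1.28 and 1.42 TPM in Luc vector tumors. The groups did not overlap, but highest Aoah and lowest vector were nearly equal, and the fall of 0.56 ± 0.19 on the log2 scale only just passed (limma adjusted p = 0.0493). That call was kept in 4 of 22 alternatives. Il6ra and Il6st, the binding and signalling chains for interleukin-6, did not pass. Il6ra was at 0.29 to 1.96 TPM over the Aoah group, with 1.49 to 3.26 TPM over the vector group (-0.87 ± 0.30, limma adjusted p = 0.0508), and Il6st at 3.81 to 10.9 against 8.53 to 16.4 TPM (-0.87 ± 0.33, adjusted p = 0.0673).

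Of the 5 transcription factors, 4 fell in Luc tumors, beside 14.3% of all genes tested. Stat3, the central factor of the pathway, was at 10.6, 23.8, 5.02 and 7.80 TPM in Luc Aoah and at 33, 25.1, 53.6 and 48.9 TPM in Luc vector tumors. Aoah tumor 2 came close to vector tumor 2, without overlap, and Stat3 fell by 1.83 ± 0.42 on the log2 scale, 3.55-fold (limma adjusted p = 0.0113). When Luc vector tumors 1 and 3 were left out, Stat3 stood at -1.70 with an adjusted p of 0.129 by limma.

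Bcl3, an NF-kB cofactor that Stat3 also raises, was at 5.95, 9.51, 4.31 and 4.51 TPM in Luc Aoah and at 20.2, 16.8, 28.8 and 25.9 TPM in Luc vector tumors. Junb, an AP-1 subunit and an early interleukin-6 gene, was at 7.06, 9.44, 3.19 and 4.91 against 28.6, 20, 35.5 and 18.7 TPM. Both were separated by a clear gap: Bcl3 fell 3.45-fold (-1.79 ± 0.30, limma adjusted p = 0.00171) and Junb 3.82-fold (-1.94 ± 0.34, adjusted p = 0.00207). Without Luc vector tumors 1 and 3, Bcl3 was -1.69 (limma adjusted p = 0.0409) and Junb -1.59 (adjusted p = 0.0665).

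Cebpd, the C/EBP factor that the acute phase itself raises, was at 1.03, 1.08, 0.71 and 1.20 TPM in Luc Aoah and at 2.17, 2.87, 3.99 and 1.74 TPM in Luc vector tumors. The groups did not overlap, and Cebpd fell by 0.85 ± 0.26 on the log2 scale (limma adjusted p = 0.0336), or -0.71 with an adjusted p of 0.245 without Luc vector tumors 1 and 3. Its partner Cebpb overlapped between groups, at 6.66 to 31.4 against 11.9 to 38.8 TPM, and did not pass (-0.69 ± 0.48, limma adjusted p = 0.281).

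The feedback gene Socs3 gave the smallest adjusted p of the list. It was at 3.54, 3.79, 2.42 and 1.46 TPM in Luc Aoah and at 25.6, 21.7, 33.5 and 22.4 TPM in Luc vector tumors. The highest Aoah tumor lay far below the lowest vector tumor, and Socs3 fell by 2.85 ± 0.34 on the log2 scale, 7.19-fold (limma adjusted p = 0.000151). With Luc vector tumors 1 and 3 left out, it was -2.65 (adjusted p = 0.00855 by limma).

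Ier3, an immediate early gene that protects against cell death, was also far lower. It was at 2.90, 2.64, 0.41 and 0.71 TPM in Luc Aoah and at 17.6, 13.9, 30.2 and 11.5 TPM in Luc vector tumors. All 4 Aoah tumors were far lower, a 7.5-fold fall (-2.91 ± 0.39, limma adjusted p = 0.000352), and -2.50 without Luc vector tumors 1 and 3 (adjusted p = 0.0146). Pim1, a kinase induced by Stat factors, did not pass: 4.43 to 8.71 TPM over the Aoah group, with 5.93 to 10.4 TPM over the vector group (-0.51 ± 0.26, limma adjusted p = 0.155).

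Both genes of the interleukin-1 axis fell in Luc tumors, beside 14.3% of all genes tested. Il1r1, the signalling receptor, was at 22.1, 32.8, 12.7 and 12.2 TPM in Luc Aoah and at 57.3, 55.7, 53.9 and 67.7 TPM in Luc vector tumors. Il1rn, the receptor antagonist, was at 3.41, 3.96, 2.90 and 3.65 against 11.3, 9.11, 11.6 and 7.16 TPM. Neither overlapped: Il1r1 fell 3.06-fold (-1.62 ± 0.29, limma adjusted p = 0.00229) and Il1rn 2.38-fold (-1.25 ± 0.34, adjusted p = 0.025). When Luc vector tumors 1 and 3 were left out, the values were -1.69 for Il1r1 (limma adjusted p = 0.0347) and -1.03 for Il1rn (adjusted p = 0.24).

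Neutrophils also make Il1rn and respond to several of these cytokines, and their markers also fell in Luc tumors. The 12 listed neutrophil markers summed to 52.5 to 102 TPM over the Aoah group, with 144 to 402 TPM over the vector group, and 6 of the 9 tested fell, Retnlg, Mmp8, S100a8 and S100a9 among them, with none higher. Of all genes tested, 14.3% fell in Luc. Ly6g, a defining marker, stayed at 0.79 TPM or below in every tumor. In LucOS the sum was 128 to 456 against 406 to 919.6 TPM, with none of the 9 called, where 0.215% of all genes tested fell. Their median there was -1.04. An unadjusted p under 0.05 (limma) was held by 44.4% of the 9, beside 12.3% of all genes tested. How Il1rn and these markers were ordered among LucOS Aoah tumors depended on the marker. Tumor 2, with the highest sum (456 TPM), held 2.88 TPM of Il1rn, and tumor 3, with the lowest (128 TPM), held 12 TPM. The sum was mostly S100a8 and S100a9, at 221 and 206 TPM in tumor 2 and 58.6 and 58.8 TPM in tumor 3. Camp and Mpo were also highest in tumor 2, at 14.2 and 4.75 TPM. Retnlg and Csf3r were instead highest in tumor 3, at 4.01 and 2.66 TPM. Without Luc vector tumors 1 and 3, 0 of 8 tested were called, where 90 of all 13243 genes tested were called lower. The part of neutrophils in the results was not tested.

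The protease inhibitors held the widest changes. A2m, alpha-2-macroglobulin, was at 18.4, 11.6, 9.76 and 5.37 TPM in Luc Aoah and at 298, 356, 362 and 206 TPM in Luc vector tumors. No Aoah tumor came near the vector range, and A2m fell 26.3-fold (-4.72 ± 0.84, limma adjusted p = 0.00419). Without Luc vector tumors 1 and 3, it was -4.58 with an adjusted p of 0.0663 by limma.

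The Serpina3 genes, neighbors on chromosome 12 that encode relatives of alpha-1-antichymotrypsin, divided. Serpina3n was at 50.2, 114, 27 and 26.8 TPM in Luc Aoah and at 472, 608, 671 and 248 TPM in Luc vector tumors. Serpina3k was at 439.7, 713, 325 and 901 against 22.7, 78.8, 107 and 31.1 TPM. Neither overlapped, but they went opposite ways: Serpina3n fell 10.1-fold (-3.34 ± 0.54, limma adjusted p = 0.00147) and Serpina3k rose 10.9-fold (3.45 ± 0.80, adjusted p = 0.015).

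Serpina3m did not pass, at 54.5 to 83.3 TPM over the Aoah group, with 38 to 204 TPM over the vector group (-0.38 ± 0.49, limma adjusted p = 0.565). The longest annotated transcripts matched at 81.5% of aligned bases between Serpina3k and Serpina3n and at 91.3% between Serpina3k and Serpina3m, so reads may be shared among them and these levels are uncertain. With Luc vector tumors 1 and 3 left out, Serpina3n was -3.07 (limma adjusted p = 0.0358) and Serpina3k 3.45 (adjusted p = 0.101).

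Itih3 and Itih4, the inter-alpha-trypsin inhibitor heavy chains of the list, fell. Of the related chains outside it, looked up after the values were seen, Itih2 also fell (-1.14 ± 0.38, limma adjusted p = 0.0456) and Itih1 rose (1.57 ± 0.47, adjusted p = 0.0324). Itih3, which links to hyaluronan in the matrix, was at 193, 290, 119.6 and 119 TPM in Luc Aoah and at 433, 537, 673 and 464 TPM in Luc vector tumors. Itih4, a plasma acute phase relative whose start-site window with a Stat element is printed above, was at 696, 909.6, 687 and 618 against 1269.6, 1467, 1949.9 and 1150.2 TPM. The groups did not overlap for either: Itih3 fell 3.08-fold (-1.62 ± 0.34, limma adjusted p = 0.00709) and Itih4 1.98-fold (-0.99 ± 0.29, adjusted p = 0.0321). When Luc vector tumors 1 and 3 were left out, Itih3 was -1.57 (limma adjusted p = 0.0873) and Itih4 -0.85 (adjusted p = 0.238).

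Lrg1, a secreted leucine-rich glycoprotein, was the 1 of 5 metal handling and other secreted genes that fell, near the 14.3% of all genes tested. Its groups did not overlap. It was at 96.4, 222, 63.9 and 35.5 TPM in Luc Aoah and at 361, 381, 589 and 249.6 TPM in Luc vector tumors. Aoah tumor 2 came close to vector tumor 4 without reaching it, and Lrg1 fell 4.46-fold (-2.16 ± 0.54, limma adjusted p = 0.0176), or -1.87 with an adjusted p of 0.184 without Luc vector tumors 1 and 3. Ceruloplasmin (Cp, -0.81 ± 0.42), the metalloreductase Steap4 (-0.99 ± 0.52) and the metallothioneins Mt1 (-1.0 ± 0.45) and Mt2 (-1.08 ± 0.56), which bind zinc and copper, did not pass. Their limma adjusted p-values were 0.154 for Cp, 0.158 for Steap4, 0.107 for Mt1 and 0.157 for Mt2. Luc Aoah and Luc vector tumors overlapped for all 4. The Aoah and vector ranges were 208 to 559 and 524 to 911 TPM for Cp, and 22.2 to 69.6 and 66 to 84.3 TPM for Steap4. They were 149 to 432 and 372 to 644 TPM for Mt1, and 88.5 to 387 and 284 to 554 TPM for Mt2. In each of the 4 genes Luc Aoah 2 was the tumor that reached the vector range.

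The serum amyloid A genes encode apolipoproteins that are among the strongest acute phase proteins. In Luc tumors 1 of the 4 fell, beside 14.3% of all genes tested. Saa3, which is also made outside the liver, was at 488, 487, 525 and 302 TPM in Luc Aoah and at 1021, 1075, 585 and 772 TPM in Luc vector tumors. The ranges were close but did not overlap, and Saa3 fell 1.90-fold (-0.93 ± 0.25, limma adjusted p = 0.0221). That call was lost without Luc vector tumors 1 and 3 (-1.05, adjusted p = 0.0879 by limma) and when all tumors were scaled to equal medians (-0.61).

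Saa1 was at 2119, 4988, 4169 and 309.7 TPM in Luc Aoah and at 919, 1038, 1160.2 and 878 TPM in Luc vector tumors. Saa2 was at 1273, 3926, 2505 and 169.9 against 587, 641, 873 and 557 TPM. For both genes 3 Aoah tumors lay above all vector tumors and Luc Aoah 4 below all of them. The highest Luc Aoah tumor held 16.1 times the lowest for Saa1, beside 1.32 times among Luc vector tumors, and the differences did not pass (Saa1 0.95 ± 0.86, limma adjusted p = 0.412, and Saa2 0.89 ± 1.00, adjusted p = 0.511).

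Saa1 and Saa2 transcripts matched at 94.4% of aligned bases and may share reads. Saa4, the constitutive form, was at 82.4 to 152 TPM over the Aoah group, with 129 to 158 TPM over the vector group, and did not pass (-0.38 ± 0.26, limma adjusted p = 0.269). The 4 genes together took 0.0865% to 0.957% of TPM in Luc Aoah tumors and 0.235% to 0.289% in Luc vector tumors.

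None of the 7 orosomucoid, heme-binding and pentraxin genes passed in Luc tumors (limma), and none had an unadjusted p under 0.05, which 41.8% of all genes tested had. The orosomucoids, drug-binding plasma glycoproteins, stood at -0.47 ± 0.31 for Orm1, -0.78 ± 0.53 for Orm2 and 0.70 ± 0.48 for Orm3. Orm1 was at 1682 to 3314 TPM over the Aoah group and at 2669 to 5144 TPM over the vector group, Orm2 at 261 to 1337 and 859 to 1273 TPM, and Orm3, far less abundant, at 16.4 to 41.6 and 12.8 to 19.3 TPM. Orm1 and Orm2 transcripts matched at 91.0% of aligned bases, so these 3 values are uncertain. Haptoglobin (Hp), which binds free hemoglobin, was at 3050.4, 3844, 2149 and 1720.5 TPM in Luc Aoah and at 3913, 4861, 5205 and 3157 TPM in Luc vector tumors, an overlap of 1 Aoah tumor with the lower vector tumor (-0.71 ± 0.48, limma adjusted p = 0.261). Hemopexin (Hpx, 0.28 ± 0.38), serum amyloid P (Apcs, 0.06 ± 0.41) and C-reactive protein (Crp, 0.25 ± 0.47) had differences smaller than their SE. Their Aoah and vector ranges overlapped, at 2422 to 3637 and 1926 to 3498 TPM for Hpx, 150.1 to 368 and 183 to 442 TPM for Apcs, and 33 to 89.8 and 42.2 to 63.6 TPM for Crp, which in mice is a minor acute phase protein.

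**Figure D3:**
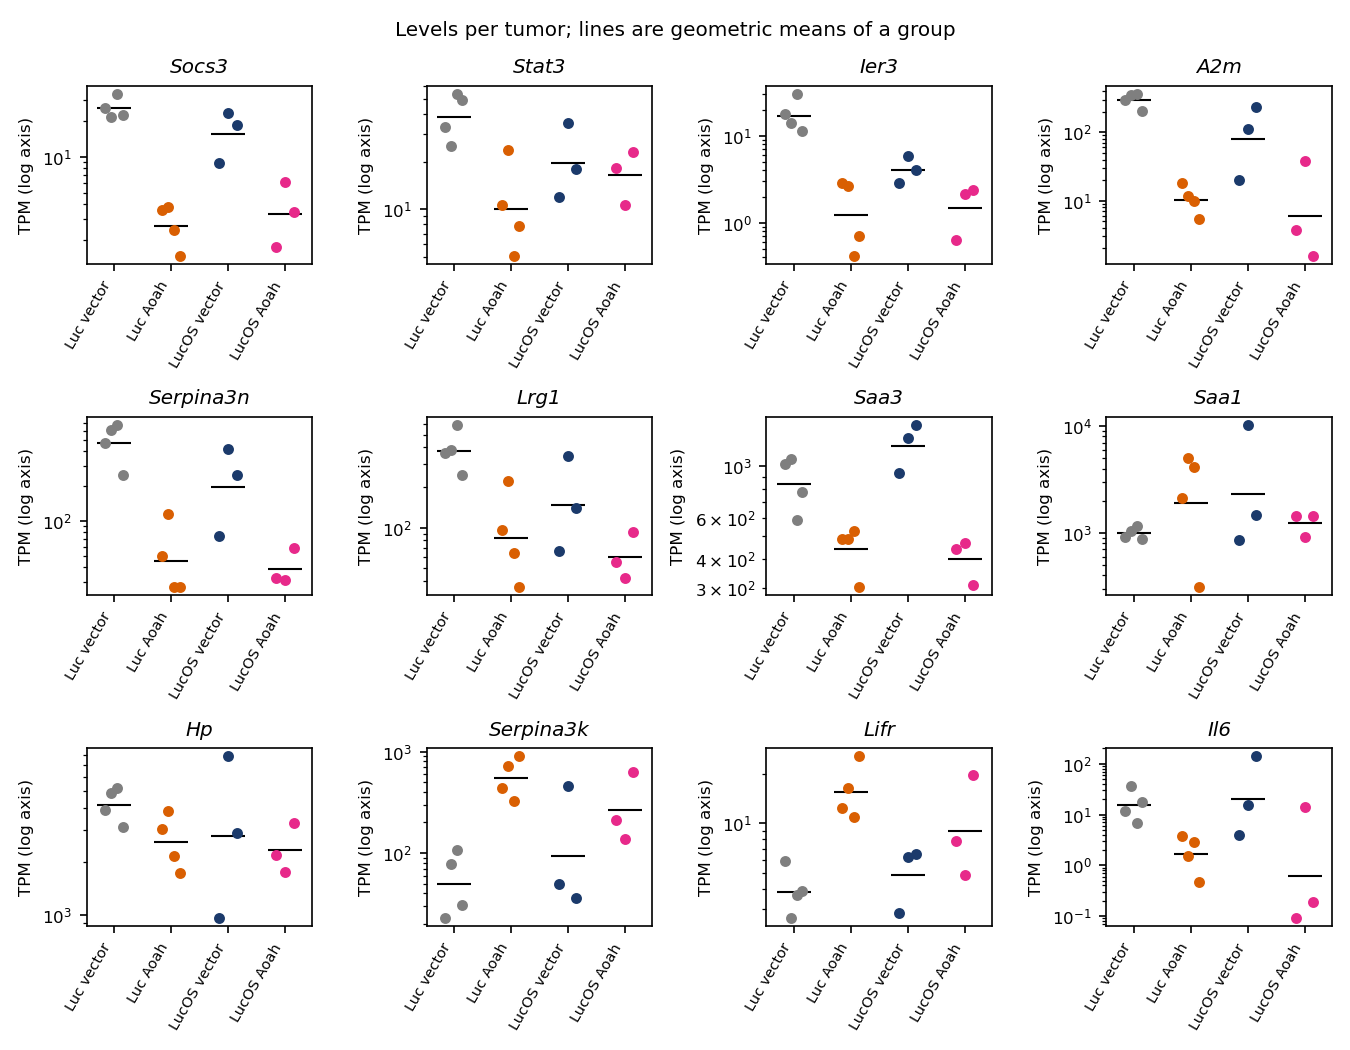
TPM on a log axis for 11 members and Il6, 1 point per tumor, with a line at the geometric mean of each group. Socs3, Ier3, A2m and Serpina3n in Luc Aoah tumors lie below every Luc vector tumor, Serpina3k and Lifr lie above, and Saa1 in Luc Aoah spreads from 309.7 to 4988 TPM.

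In LucOS tumors 2 of the 36 genes fell and 0 rose (limma, adjusted p under 0.05), where 0.215% of all genes tested fell and 0.75% rose. The 2 were Saa3 and Socs3. In LucOS Aoah tumors Saa3 was at 443, 467 and 308 TPM, and in LucOS vector tumors at 929, 1313 and 1494 TPM. The groups were well apart, and Saa3 fell 3.05-fold (-1.61 ± 0.29, limma adjusted p = 0.0217).

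Socs3 was at 1.74, 6.14 and 3.44 TPM in LucOS Aoah and at 8.94, 23.2 and 18.4 TPM in LucOS vector tumors. Those groups did not overlap either, and Socs3 fell 3.77-fold (-1.92 ± 0.39, limma adjusted p = 0.0335). Both calls rested on few tumors. Without LucOS Aoah 1, LucOS Aoah 3 or LucOS vector 3, 0 genes of the list passed (and 0.097%, 0.105% and 0.172% of all genes tested), with adjusted p-values by limma of 0.071, 0.0935 and 0.0955 for Saa3 and of 0.142, 0.126 and 0.143 for Socs3. Saa3 was the 1 gene that passed without Luc Aoah 1, Luc vector 1, Luc vector 3, Luc vector 4 or LucOS vector 2, tumors that enter the fit through the shared spread or directly.

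Altogether 6 of the 36 genes had all LucOS Aoah tumors below all LucOS vector tumors, as had 6.07% of all genes tested, and 0 had them all above, beside 6.22%. Besides Saa3 and Socs3 these were Serpina3n, Il1r1, Ier3 and Apcs. Serpina3n was at 32, 30.8 and 58.8 TPM in LucOS Aoah against 73.8, 418 and 249 TPM in LucOS vector tumors (-2.32 ± 0.62, limma adjusted p = 0.104). Il1r1 was at 21.4, 20.6 and 22 against 32.4, 61.7 and 64.5 TPM (-1.21 ± 0.33, adjusted p = 0.105 by limma). For Serpina3n LucOS vector 1 sat just above the Aoah range, and for Il1r1 the 3 Aoah tumors were nearly equal.

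Ier3 was at 0.63, 2.13 and 2.40 TPM in LucOS Aoah against 2.89, 5.82 and 4.03 in LucOS vector tumors (-0.98 ± 0.44, limma adjusted p = 0.388). Apcs, which did not differ beyond its SE in Luc tumors, was at 155, 187 and 179 against 246, 997 and 287 TPM (-1.25 ± 0.48, limma adjusted p = 0.277). Its highest value, in LucOS vector 2, was far above the other 2 vector tumors.

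A2m had the largest LucOS difference of the list, -3.41 ± 0.97, and did not pass (limma adjusted p = 0.14). It was at 3.70, 37.8 and 1.53 TPM in LucOS Aoah and at 20, 112 and 234 TPM in LucOS vector tumors. LucOS Aoah 2 was above LucOS vector 1, and without LucOS Aoah 2 A2m passed, together with Saa3 and Socs3. The genes that rose in Luc did not pass in LucOS: Serpina3k was at 210.3, 136 and 635 TPM against 49.9, 459 and 36.4 (1.46 ± 0.92, limma adjusted p = 0.597), and Lifr at 7.77, 4.81 and 19.6 against 2.85, 6.27 and 6.49 TPM (0.77 ± 0.44, adjusted p = 0.526).

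Stat3 and Bcl3, which fell in Luc, overlapped widely between LucOS groups. Stat3 was at 18.2, 10.6 and 23 TPM in LucOS Aoah and at 11.9, 35.2 and 18 TPM in LucOS vector tumors (-0.24 ± 0.49, limma adjusted p = 0.92). Bcl3 was at 10.2, 6.60 and 13.7 against 5.96, 14.3 and 10.4 TPM (0.01 ± 0.35, adjusted p = 0.999 by limma). The remaining differences in LucOS ran from -1.29 ± 0.62 for Lrg1 to 0.84 ± 0.55 for Cebpb, and the median over the 36 genes was -0.34, beside -0.02 over all genes tested.

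Il1rn was at 2.82, 2.88 and 12 TPM in LucOS Aoah and at 6.75, 8.69 and 13.6 TPM in LucOS vector tumors, with LucOS Aoah 3 inside the vector range (-0.84 ± 0.40, limma adjusted p = 0.418). Lrg1 was at 55.1, 41.8 and 92.9 against 66.5, 347 and 140.1 TPM (limma adjusted p = 0.427). Itih3 was at 144, 167 and 210.4 against 162, 537 and 344 TPM (-0.85 ± 0.40, limma adjusted p = 0.402). For Lrg1 and Itih3 the lowest vector tumor, LucOS vector 1, lay within the Aoah range.

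Junb was at 6.29, 6.95 and 10.1 TPM in LucOS Aoah and at 7.29, 20.7 and 14.8 TPM in LucOS vector tumors (-0.72 ± 0.39, limma adjusted p = 0.502). Orm1 had an unadjusted p of 0.0139 and did not pass, at 1479, 1709 and 2470.5 against 2369.7, 5926 and 3441 TPM (-0.98 ± 0.35, limma adjusted p = 0.242). Its groups overlapped by 1 tumor on each side. Il6ra (0.12 ± 0.35), Il6st (-0.37 ± 0.38), Osmr (-0.23 ± 0.22), Mt1 (-0.15 ± 0.52), Hp (-0.26 ± 0.55) and Hpx (-0.02 ± 0.43) differed by about their SE or less.

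**Figure D4:**
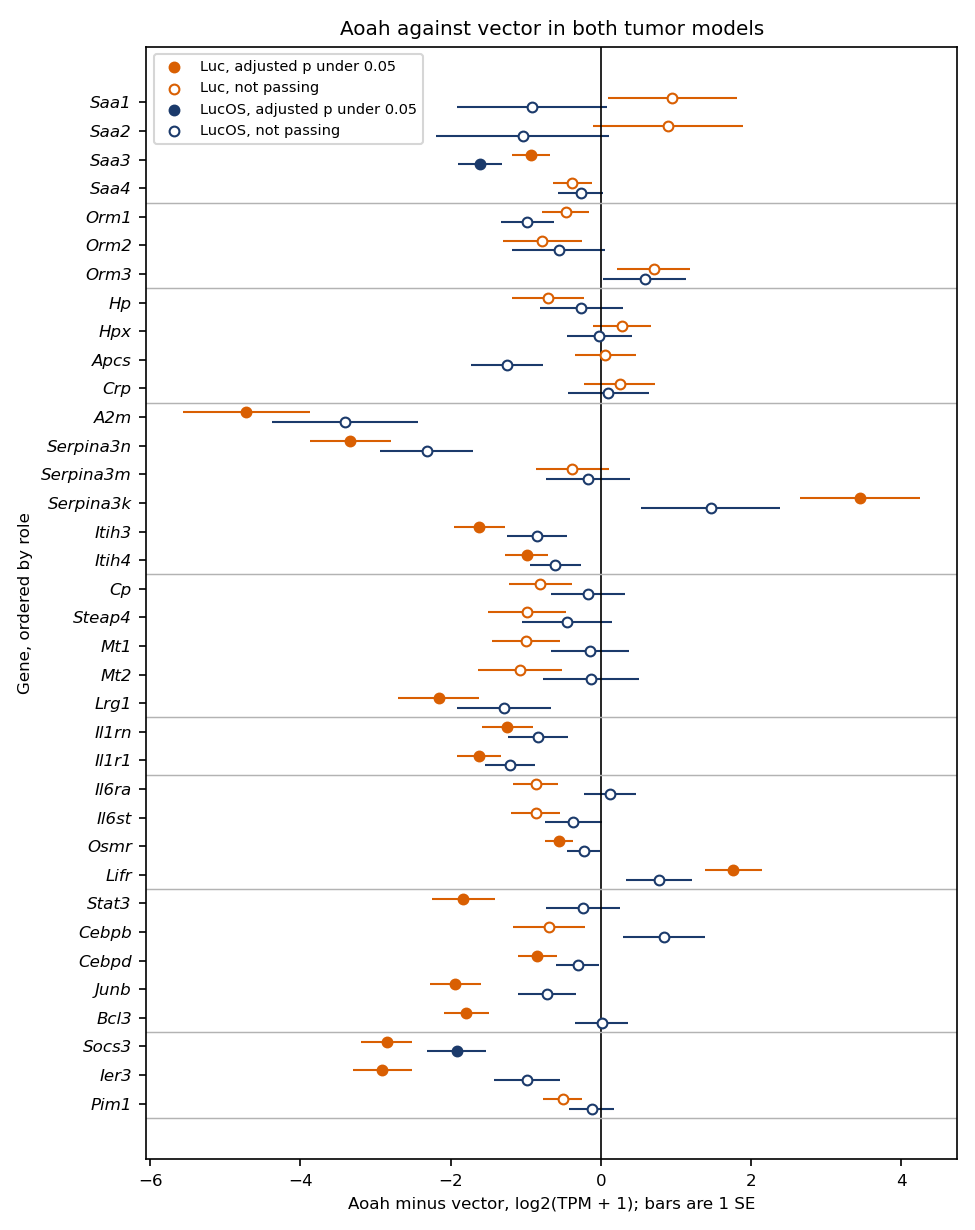
Aoah minus vector on the log2(TPM + 1) scale for each of the 36 genes in Luc (orange) and LucOS (blue) tumors, with bars of 1 SE and filled points for an adjusted p under 0.05. Orange filled points lie left of 0 for 15 genes and right of 0 for Serpina3k and Lifr, and blue filled points are Saa3 and Socs3.

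Whether the Aoah effect differed between the models was tested as an interaction (LucOS effect minus Luc effect). None of the 36 genes passed (limma), and 0.00743% of all genes tested did. At an unadjusted p under 0.05 there were 5 of the 36 genes (13.9%), beside 10.2% of all genes tested, each with a limma adjusted p of 0.443. They were Bcl3 (1.80 ± 0.46), Ier3 (1.93 ± 0.59), Stat3 (1.58 ± 0.64), Junb (1.22 ± 0.51) and Il6ra (0.99 ± 0.46). All 5 had a less negative or opposite effect in LucOS. The median interaction over the list was 0.43, beside 0.23 over all genes tested, and for Saa3 it was -0.68 ± 0.38 and for Socs3 0.93 ± 0.51, both with a limma adjusted p of 0.443.

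The antigens were compared within each plasmid group. Among vector tumors 0 of the 36 genes differed between LucOS and Luc (limma), as did 0% of all genes tested. At an unadjusted p under 0.05 there were 4 of the 36 (11.1%), beside 14.2% of all genes tested, each lower in LucOS with a limma adjusted p of 0.344: Ier3 (-1.83 ± 0.42), Bcl3 (-1.14 ± 0.33), Junb (-0.87 ± 0.36) and Lrg1 (-1.34 ± 0.58). For Ier3 every LucOS vector tumor, at 2.89 to 5.82 TPM, was below every Luc vector tumor, at 11.5 to 30.2 TPM. Bcl3 did not overlap either, at 5.96 to 14.3 against 16.8 to 28.8 TPM. The share of all genes without overlap is not given for this comparison, so these separations are no result about the list. Most genes were lower in LucOS vector tumors, 29 of the 36 and 9551 of the 13466 tested. Among Aoah tumors 0 of the 36 passed and 0 had an unadjusted p under 0.05 (limma), where 0.0817% of all genes tested passed and 7.01% had such a p. These comparisons share tumors with those of Aoah against vector.

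Spread within groups followed single tumors for much of the list. LucOS vector 2 was the highest of its group for 31 of the 36 genes, and LucOS vector 1 the lowest for 35. In that group Saa1 was at 855, 10189 and 1462 TPM, and Hp at 957, 7887 and 2904 TPM. LucOS vector 2 stood above the other 2 tumors for both, and its 4 serum amyloid A genes took 2.12% of TPM. Luc Aoah 2 was highest of its group for 29 genes, LucOS Aoah 3 for 30 and Luc vector 3 for 25. The median log2(TPM + 1) over all genes tested was also highest of its group in LucOS vector 2 (3.31), Luc Aoah 2 (3.446) and LucOS Aoah 3 (3.217). It was lowest of its group in LucOS vector 1 (2.739). In the Luc vector group it was highest in tumor 4 (3.581), with tumor 3 at 3.462. The order of these tumors is therefore not particular to the list, and its part in the counts was not tested. LucOS Aoah 3 is also the tumor with 16.6% mitochondrial transcripts, and the part of that share in its levels was not tested.

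The tumor with most Il6 was not the one with most Saa1. LucOS vector 3, at 142 TPM of Il6, held 1462 TPM of Saa1, and LucOS vector 2, at 15.7 TPM of Il6, held 10189 TPM. A2m and the pancreatitis-associated lectins Reg3b and Reg3g followed another order. In LucOS vector tumors 1 to 3 Reg3b was at 36.7, 155 and 698 TPM, and in LucOS Aoah tumors at 0.08, 66.2 and 0.13 TPM. In both LucOS groups and in Luc Aoah tumors the tumor highest in Il6 was also highest in A2m, Reg3b and Reg3g. With 3 or 4 tumors a group this order was not tested. In Luc Aoah that was tumor 1, with Il6 at 3.74, A2m at 18.4, Reg3b at 10.8 and Reg3g at 6.68 TPM. In Luc vector tumors it was not so for A2m, highest in tumor 3, where Il6 was lowest, nor for Reg3g, highest in tumor 1 at 600.1 TPM beside 587 TPM in tumor 2, which held most Il6.

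Around the list, 19 further acute phase and interleukin-6 induced liver genes, also chosen with earlier results of these data known, were tested. In Luc tumors 13 fell and 2 rose, with a median of -1.29. Of all genes tested, 14.3% fell and 7.93% rose, with a median of -0.24. Reg3b fell by 8.46 ± 1.27 and Reg3g by 6.87 ± 1.11 on the log2 scale (limma adjusted p = 0.00181 and 0.00263), Cd14, the lipopolysaccharide co-receptor, by 2.28 ± 0.30 (0.000352), and the complement inhibitor C4bp rose by 1.78 ± 0.35 (0.00442). Reg3b, Reg3g and Cd14, all lower, were the calls of the 19 without Luc vector tumors 1 and 3. There 90 of all 13243 genes tested were called lower. In LucOS none of the 19 passed (limma), 9 had an unadjusted p under 0.05, beside 12.3% of all genes tested, and the median was -0.70.

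Genes known to fall in the acute phase went both ways in Luc tumors, with 3 of 12 higher and 2 lower and a median of 0.35. Over all genes tested 7.93% were higher and 14.3% lower, with a median of -0.24. Igf1 rose by 2.51 ± 0.39 and transthyretin (Ttr) by 1.40 ± 0.31, while Fetub fell by 1.46 ± 0.44 and Ahsg by 1.09 ± 0.33 (limma adjusted p = 0.000986, 0.00881, 0.0347 and 0.0348). Igf1, higher, was the 1 call of the 12 without Luc vector tumors 1 and 3. There 265 of all 13243 genes tested were called higher. In LucOS Ttr alone passed of the 12 (1.78 ± 0.35, limma adjusted p = 0.033), where 0.75% of all genes tested rose, and the list median was 0.49.

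Calls were fewer in the other lists of the pathway. In Luc tumors they stand beside 14.3% of all genes lower, 7.93% higher and a median of -0.24. Of 8 further receptors tested, Il22ra1, Il17ra and Il1r2 fell in Luc tumors, with a list median of -0.96. Of 17 Jak kinases, other Stats, phosphatases and inhibitors, Jak3 and Ptpn11 fell, with a median of -0.34. Of 14 NF-kB and early response genes 4 fell, Icam1, Cxcl1 and Rela among them, and Ccl2 rose, with a median of -0.53. An unadjusted p under 0.05 was held by 75% of the receptors, 29.4% of the Jak and Stat list and 42.9% of the NF-kB list. Among all genes tested it was 41.8%, so the last 2 lists were below or near that share. Leaving out Luc vector tumors 1 and 3 left 0 genes of these 3 lists called. In that fit 265 of all 13243 genes tested were called higher and 90 lower, so few calls are left for any list. In LucOS 1 gene of these 3 lists passed, the chemokine Cxcl1 (-1.89 ± 0.40, limma adjusted p = 0.0391), where 0.215% of all genes tested fell.

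Some markers of other cells also differed in Luc tumors, where 7.93% of all genes tested rose and 14.3% fell. Of 10 hepatocyte markers 2 rose, Ttr and Alb, both of which are also known to fall in the acute phase, and the sum of the 10 was 11719.8 to 31488 TPM over the Aoah group, with 10134 to 13929 TPM over the vector group. T cell markers summed to 42.4 to 75.8 against 4.9 to 15.3 TPM (5 of 8 rose), and stellate cell and fibroblast markers to 103 to 166 against 32.5 to 60.6 TPM (3 of 7 tested rose). Macrophage and Kupffer cell markers summed to 305 to 433 against 204 to 396 TPM (2 of 10 rose), and endothelial markers to 43.6 to 58.5 against 33.5 to 52.1 TPM (3 of 8 rose). Of 3 cholangiocyte markers tested, Sox9 fell. An unadjusted p under 0.05 was held by 41.8% of all genes tested. Below that share were macrophage and Kupffer cell (30%), endothelial (37.5%) and cholangiocyte markers (33.3%). Above it were hepatocyte (60%), T cell (87.5%) and stellate cell and fibroblast markers (57.1%). Hepatocyte markers with such a p went both ways. Ttr, Alb and Apoa1 were higher, and Hnf4a (-1.19 ± 0.43), Cps1 (-0.77 ± 0.28) and Apob (-0.52 ± 0.23) were lower. Without Luc vector tumors 1 and 3, calls among these markers were Cd3d, Cd3g and Trbc2 of the T cell list, higher, and Sox9, lower. There 265 of all 13243 genes tested were called higher and 90 lower. In LucOS the T cell sum was 48.7 to 135 against 11.6 to 30.9 TPM, and 2 of 8 rose, beside 0.75% of all genes tested. No marker of these lists was at 0 in all tumors. Their part in the results on the 36 genes was not tested.

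All 36 genes are in the tables of comparisons that the authors deposited. For Luc, the authors' deposited table gives 18 of them lower and 4 higher at an adjusted p under 0.05, where 16.1% of all genes with an adjusted p are lower and 15.6% higher. It shares 16 of the 17 calls made here, all but Saa3 (log2 fold change -0.67, adjusted p = 0.1 in the authors' deposited table), and adds Il6ra, Il6st, Mt1 and Steap4 lower and Saa1 and Orm3 higher. For LucOS, the authors' deposited table gives 5 lower, Saa3, Socs3, Serpina3n, Il1r1 and Apcs, and 0 higher, where 0.78% of genes are lower and 1.99% higher.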

How the data were processed

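Bulk tumor RNA was captured on poly-T beads and primed with random hexamers, per the labels' protocols, which describe a directional and a non-directional kit. Whether strand was kept is unknown, and overlapping genes may share reads. RSEM, DESeq2 and mm39 appear in the submitters' processing notes. An aligner was not given in the sources. The authors deposited expression as log2(TPM + 1). Depth cannot be recovered from TPM and is unknown. The authors' deposited comparison tables hold log2 fold changes and p-values, and Wald statistics (a score) that were not used. Their Ensembl identifiers were named through GENCODE M21 (95.5% of 28026 in Luc, 95.6% of 26939 in LucOS), and the direction was read from the sign of Aoah.

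Here limma 3.58.1 (R 4.3.3) was fitted on log2(TPM + 1), with a pseudocount of 1, over all 14 tumors and 13466 genes at 1 TPM or more in at least 3 tumors. One mean was fitted per group, with trended and robust variances, and Benjamini-Hochberg adjustment was made over all genes at 0.05. Fold values are on this scale and understate changes of low genes. Tests were two-sided and checked on simulated data. Each gene was drawn independently there, without shifts shared by a whole tumor, so that check does not cover such shifts. The 36 genes and the pathway and marker lists were chosen with earlier results of these data known. All 36 genes are named. From each other list the counts, the median and up to 4 called genes with the smallest p are given, and ligands at 1 TPM in any tumor. Promoter windows are RefSeq sequence on GRCm38.p6, not the build of the files. Transcript identity is from local alignment of the longest GENCODE M21 coding transcripts. The repertoire table was not used.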

Additional observations from a re-analysis of the deposited data

Results flagged for a closer look

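In 2 of 72 values examined (a gene's highest or lowest tumor within a Luc group of 4), 1 tumor stood apart by a gap that took most of the group's range. Chance alone flags about 1 in 20 groups. Saa3 in Luc Aoah 4 was at 302.19 TPM, while the other 3 Luc Aoah tumors lay between 487.2 and 525.2 TPM (gap of 0.864 of the range). Pim1 in Luc vector 2 was at 5.93 TPM, while the other 3 Luc vector tumors lay between 9.57 and 10.4 TPM (gap of 0.848 of the range). The cause of neither was tested.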

How the results depend on the processing

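Among the 36 genes, the number called in Luc tumors was 17, and it was 15 to 19 with a pseudocount of 0.1, a minimum of 5 TPM, tumors scaled to equal medians, plain moderation, only the Luc tumors, or the replicate block. It was 11 with no filter on low values, where more genes were tested, and 5 without Luc vector tumors 1 and 3. Leaving out 1 tumor at a time gave 10 to 20, with 10 without Luc Aoah 4, and the share of all genes called moved from 6.4% to 39.3%. In LucOS 2 genes were called, 0 with no filter, 0 with only the LucOS tumors, 4 with equal medians (Il1r1 and Serpina3n added) and 0 to 3 with 1 tumor left out. With 1 tumor left out, 0.097% to 2.63% of all genes were called in LucOS. The share of all genes is not given here for the other settings, so their counts alone do not show how stable the list was. Without Luc Aoah 3 and LucOS Aoah 3 together, tried after the data were seen, the counts were 13 in Luc and 0 in LucOS. With the replicate block 15 were called in Luc and 1 in LucOS, where Socs3 no longer passed. The numbers do not pair the tumors by any statement in the labels, and same-numbered deviations correlated at 0.00, -0.55, -0.39 and -0.11 in Luc and 0.10, -0.55 and -0.09 in LucOS. The interaction and both antigen comparisons called 0 of the 36 under every alternative run. No called difference changed sign under any alternative run. Cebpd kept its Luc call in 12 of 22 alternatives, Itih4 in 13 of 23, Il1rn in 16 of 23, Lrg1 in 17 of 23 and Saa3 in 18 of 23. With no depth in TPM, no detection limit can be given for genes near 1 TPM such as Osmr, Il6ra and Cebpd.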
